A study of Mus musculus with 12 samples.

Results

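The genes described here are 40 glycolytic enzymes and hypoxia-induced genes, taken by symbol from the count tables, of 32190 gene symbols in all. Transporters were left out of the list by its rule, and 20 of the members act in or next to glycolysis while the other 20 are genes known to be induced by low oxygen. All 40 were found in both tables and all 40 passed the filter on low counts in each. Mouse RNA was sequenced in 12 libraries, 2 for each of 6 groups. Dendritic cells (DCs) were sorted out of MC38 tumors in Zbtb46-Tdtomato mice, labelled WT, on day 7 (early stage) or on day 14 (late stage) of tumor growth. MC38 cells are of a colon carcinoma line of the mouse, and Zbtb46 is a transcription factor gene used as a reporter of classical DCs. A sort on the reporter alone would take any cell in which it is active. Whether other markers were used in the sort is not stated here. Bone marrow-derived dendritic cells (BMDCs), labelled 9 days, came from WT mice or from Pde5-/- mice. They were either unstimulated or exposed to lipopolysaccharide (LPS, a bacterial cell wall component) at 200 ng/ml for 12 h. Pde5 is phosphodiesterase 5, which breaks down cyclic GMP. Nothing in the labels tells if replicates were separate mice or cultures, and the p-values therefore cover the spread among these libraries, which may be technical. The age of the mice is not given in the sources used here, and the labelled RNA protocol mentions retinas, a tissue that no sample here is labelled as.

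Glycolysis splits glucose into pyruvate, which is reduced to lactate or passed into mitochondria by pyruvate dehydrogenase. The hypoxia-inducible factor (HIF) is a dimer whose alpha subunit, Hif1a, is hydroxylated by the Egln prolyl hydroxylases and degraded when oxygen is present. When oxygen is low, HIF binds a short core motif near its target genes and raises many glycolytic enzymes together with genes of blood vessel growth, mitophagy and collagen modification. In dendritic cells, signals such as LPS are known to raise glycolysis, partly through Hif1a.

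The promoters of the members were read for the HIF core motif, taken as ACGTG or GCGTG on either strand, in the 250 bases upstream of each start listed by RefSeq (build GRCm38.p6). ACGTG is also contained in CACGTG, the E-box, which then counts as 2 matches. Of the 40 members, 36 matched the RefSeq table, with 57 windows. Plod2, Bnip3l, Ndrg1 and Zfp395 did not match. At least 1 match stood in 45 of the 57 windows, or 78.9%, against 53.7% of the 13802 windows of genes tested in these data and 38.6% of all 32851 windows. ACGTG alone stood in 45.6% of the members' windows, against 21.1% and 16.6%. The median GC content was 60.4% in the members' windows and 59.2% in those of the tested genes. Windows of nearby starts of 1 gene can overlap, as in Ak4, Aldoa, Eno1 and Pfkm, so the same match can count in more than 1 window. The 57 windows belong to 36 genes and the 13802 to 10875, so genes with several starts weigh more in these percentages. A match is a description of letters and not a site of binding. Windows of 7 members named in the results below are printed 5′ to 3′ on the gene's strand, with the matches in capitals. Only windows free of annotated exon bases could be printed, so none of Ak4, Bnip3, Pfkfb3, Ddit4, Aldoc or Mgarp is. All 7 printed windows hold a match, so they do not stand for the 57. Ldha had the most matches of these 7, Pgk1 and Pgam1 are enzymes of the payoff phase, and Pdk1, P4ha2, Adm and Hif1a are named in the comparisons.
Ldha, chr7:46845554-46845803, + strand: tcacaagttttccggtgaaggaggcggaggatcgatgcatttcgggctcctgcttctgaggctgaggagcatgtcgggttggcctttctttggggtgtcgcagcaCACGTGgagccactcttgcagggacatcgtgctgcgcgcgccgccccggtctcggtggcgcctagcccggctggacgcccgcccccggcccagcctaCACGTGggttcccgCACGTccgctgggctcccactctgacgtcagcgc
Pgk1, chrX:106186850-106187099, + strand: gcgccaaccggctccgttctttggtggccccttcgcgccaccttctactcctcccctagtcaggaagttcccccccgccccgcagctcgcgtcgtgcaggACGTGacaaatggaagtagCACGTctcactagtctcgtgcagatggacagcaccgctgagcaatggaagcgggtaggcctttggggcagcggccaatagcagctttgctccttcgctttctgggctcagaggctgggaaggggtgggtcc
Pgam1, chr19:41911621-41911870, + strand: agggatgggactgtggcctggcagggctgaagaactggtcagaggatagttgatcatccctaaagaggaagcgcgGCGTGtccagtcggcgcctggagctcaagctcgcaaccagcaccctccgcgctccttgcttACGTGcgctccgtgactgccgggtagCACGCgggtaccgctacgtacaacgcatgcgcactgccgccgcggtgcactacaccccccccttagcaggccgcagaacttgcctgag
Pdk1, chr2:71872974-71873223, + strand: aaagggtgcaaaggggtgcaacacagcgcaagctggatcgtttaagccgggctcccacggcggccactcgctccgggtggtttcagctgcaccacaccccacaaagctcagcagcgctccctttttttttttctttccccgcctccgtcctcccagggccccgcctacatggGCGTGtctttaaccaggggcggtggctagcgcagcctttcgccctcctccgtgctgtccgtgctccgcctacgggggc
P4ha2, chr11:54100674-54100923, + strand: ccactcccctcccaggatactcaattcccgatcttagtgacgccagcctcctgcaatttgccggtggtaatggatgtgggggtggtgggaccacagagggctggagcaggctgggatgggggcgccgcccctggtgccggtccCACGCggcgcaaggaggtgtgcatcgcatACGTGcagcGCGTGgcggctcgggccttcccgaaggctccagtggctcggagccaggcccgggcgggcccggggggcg
Adm, chr7:110627407-110627656, + strand: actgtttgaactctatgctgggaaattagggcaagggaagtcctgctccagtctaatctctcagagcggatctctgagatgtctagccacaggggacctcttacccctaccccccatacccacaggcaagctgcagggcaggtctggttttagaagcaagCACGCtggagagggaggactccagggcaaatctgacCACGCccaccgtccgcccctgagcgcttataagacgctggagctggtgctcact
Hif1a, chr12:73907617-73907866, + strand: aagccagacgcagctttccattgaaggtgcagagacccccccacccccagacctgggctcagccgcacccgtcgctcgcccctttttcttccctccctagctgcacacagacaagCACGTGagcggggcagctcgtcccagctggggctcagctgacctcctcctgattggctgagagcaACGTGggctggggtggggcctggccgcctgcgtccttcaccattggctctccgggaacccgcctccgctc
RefSeq lists 2 starts each for Ldha and Pdk1, and the window of the start that lies first along the gene's strand is printed; the other window held 1 match for Ldha and 0 for Pdk1. In the printed windows, Ldha held 5 matches, the nearest 34 bases upstream of the start, while Pdk1 held a single GCGTG. Hif1a itself held 3, with a CACGTG among them.

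The libraries held 14153700 to 19293261 counts in the tumoral table and 16122941 to 19684338 in the BMDC table. Levels are given in CPM, counts scaled to a common library size, with TMM factors (trimmed mean of M-values). Levels per kb are the exception: they are scaled by total counts alone, without TMM factors. All 8 core classical DC markers were present in every group. Their summed levels were 14700 to 23400 CPM in the tumoral libraries and 9940 to 18700 CPM in the BMDC libraries. Most of each sum came from the antigen presentation genes Cd74, H2-Aa and H2-Ab1. The sums are therefore not a measure of classical DC content. Zbtb46 was 19.7 to 45.6 CPM in the tumoral and 113 to 268 CPM in the BMDC libraries. Flt3, another of the 8, was 63.4 to 135 CPM and 372 to 483 CPM. Pde5a did not separate the genotypes: it stood at 3.04 and 2.08 CPM in unstimulated WT and 2.55 and 3.01 CPM in unstimulated knockout-labelled cells. Which exons were deleted is not given in the sources used here, so gene-level counts do not check the label, and these libraries are called knockout-labelled. The unstimulated knockout-labelled libraries also stood apart from the unstimulated WT libraries in Il1b, a cytokine gene raised by LPS. Il1b was 691 and 454 CPM there, against 41.6 and 37.9 CPM in unstimulated WT and 630 and 707 CPM in LPS-treated WT. Irf7, an interferon response gene, was 386 and 246 CPM there, against 19.8 and 29.2 CPM in unstimulated WT. In tumors, early replicate 1 stood apart from early replicate 2, with Il1b at 291 against 2736 CPM and a summed level of 7 mature DC markers of 671 against 2370 CPM. Within both knockout-labelled groups, replicate 1 held more of the members than replicate 2. It was the higher in 37 of 40 members without LPS (median log2 difference 0.39) and in 35 of 40 with LPS (0.68), where the medians over all genes were -0.0034 and -0.0017.

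The 40 members together took 1.95% of all counts in both early tumoral libraries and 2.59% and 2.95% in the late ones. In BMDCs they took 0.858% and 0.912% in WT, 0.96% and 1.0% in WT with LPS, 1.32% and 1.03% in knockout-labelled cells, and 2.04% and 1.45% in knockout-labelled cells with LPS. Per kilobase of the principal transcript, Gapdh, which oxidizes glyceraldehyde phosphate, was the most abundant member in all 6 groups. Its level per kb ran from 839 ± 93.6 CPM per kb (SD, n = 2) in LPS-treated WT BMDCs to 4180 ± 465 (SD, n = 2) in late tumoral DCs. Aldoa, Pkm and Eno1 stood among the next 4 in all 6 groups. Pfkfb3, which makes the allosteric activator of phosphofructokinase, joined these in 3 of the 4 BMDC groups and stood second in LPS-treated WT cells at 743 ± 9.67 CPM per kb (SD, n = 2), above Aldoa at 526 ± 45.5. The tumoral and BMDC tables are separate experiments, so cell source and experiment cannot be told apart between them. At the low end, Mgarp, a mitochondrial protein gene, stood at 0.0481 ± 0.068 CPM per kb in unstimulated WT BMDCs (SD, n = 2), with 2 and 0 raw counts. Gapdh has 65 near-identical copies with rows of their own in the tables, holding 0.467% as many counts as Gapdh itself. Ankrd37 and Higd1a overlap genes on the opposite strand over 22.7% and 22.5% of their exon bases. Whether the counting used strand is not given in the sources used here, so their values are uncertain to that extent.

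**Figure D1:**
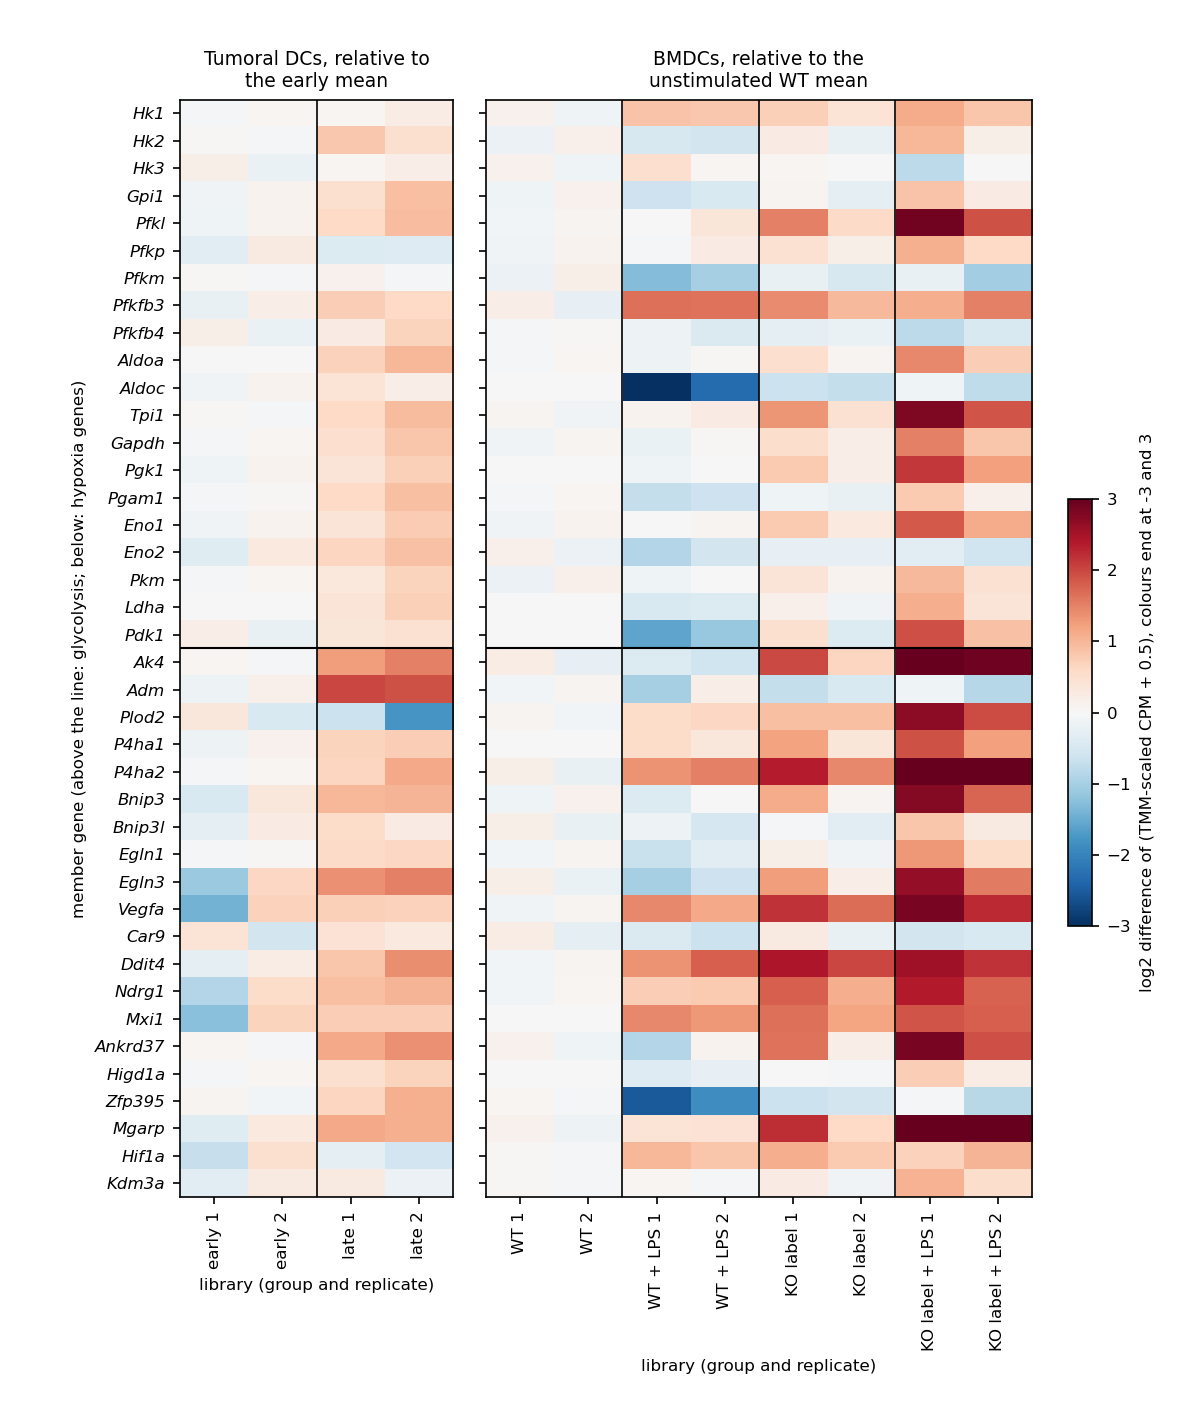
Each cell is the log2 difference of 1 library's TMM-scaled CPM (plus 0.5) from the mean of the early tumoral libraries (left, 4 libraries) or of the unstimulated WT BMDC libraries (right, 8 libraries), for the 40 members in rows. Red is higher and blue lower; the late tumoral columns and the knockout-labelled LPS columns are red for most members, while in WT cells with LPS Aldoc and Zfp395 are deep blue.

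Within enzyme families, the share of each isoenzyme in the family's reads per kb differed between groups. Hk3 was the largest share of the 3 hexokinases in all 4 tumoral libraries, at 51.8% to 61.2%, and in knockout-labelled cells with LPS it stood at 23.0% and 41.0%, below Hk1 at 53.1% and 45.2%. Pfkl, the liver-type phosphofructokinase, made up 27.8% and 29.0% of its family in WT cells with LPS and 56.9% and 48.2% in knockout-labelled cells with LPS. In tumors its share was 32.5% and 26.9% early and 44.9% and 50.4% late, beside 53.4% and 48.3% late for the platelet-type Pfkp. Among the collagen prolyl 4-hydroxylase subunits, P4ha2 went from 24.2% and 18.7% in unstimulated WT cells to 53.9% and 51.8% in knockout-labelled cells with LPS. Bnip3, a mitophagy receptor, took 62.4% to 76.0% of the Bnip3 and Bnip3l total in tumoral DCs and 17.0% to 49.8% in BMDCs. These shares are descriptions and were not tested.

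**Figure D2:**
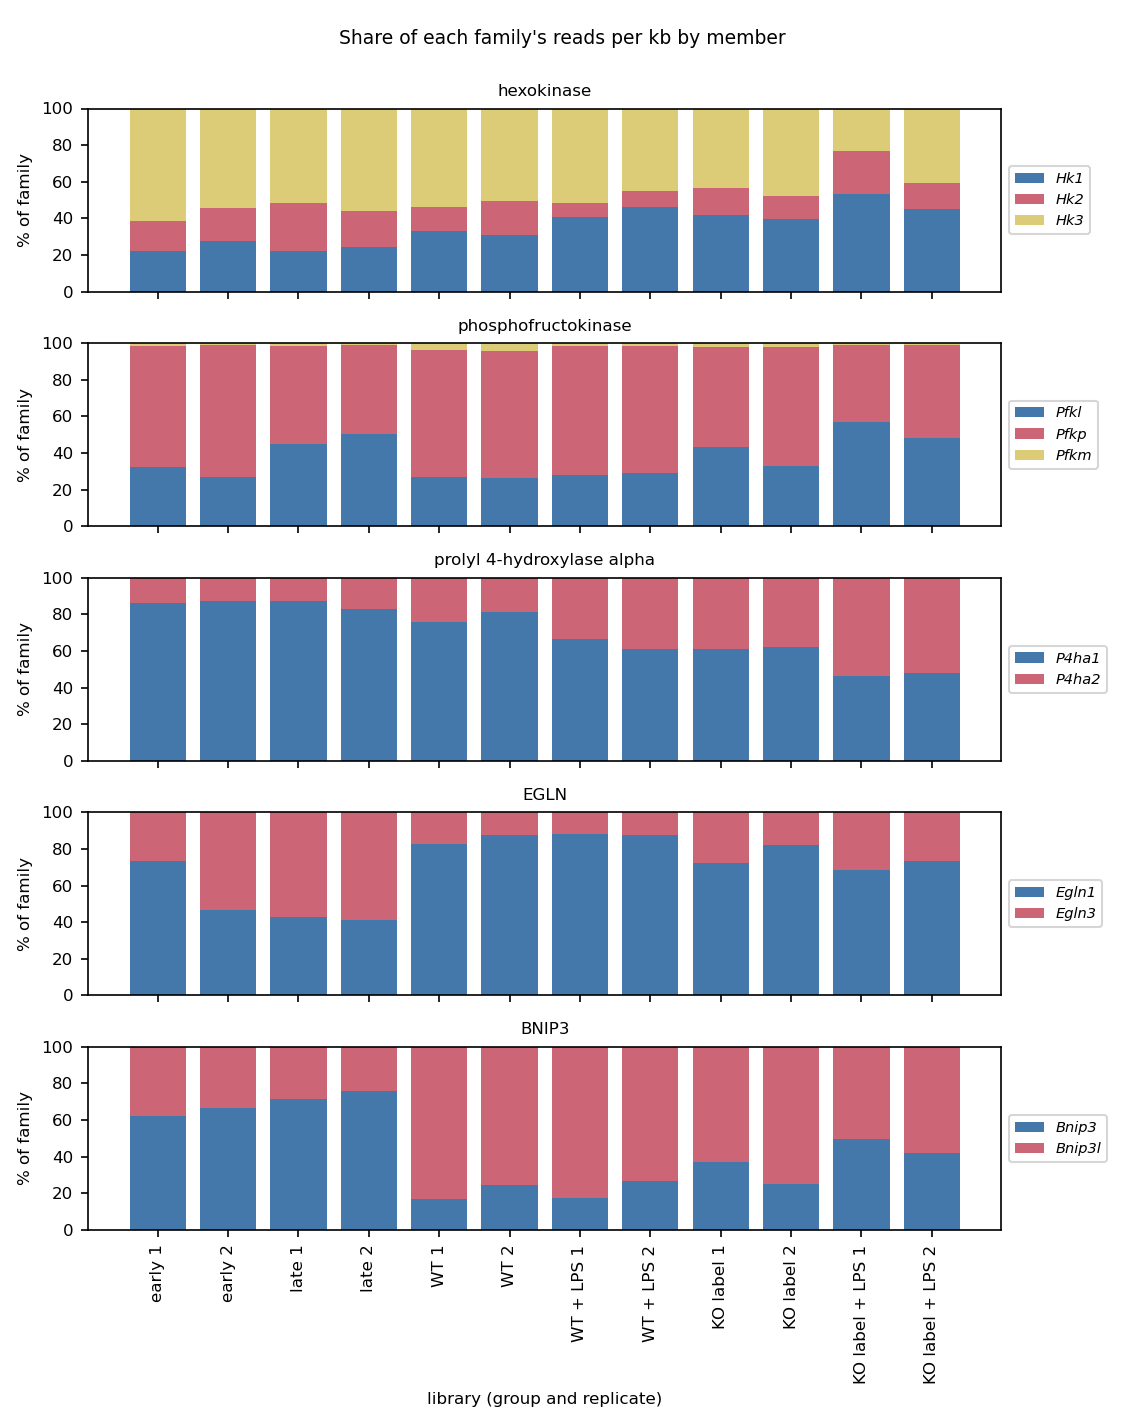
Stacked bars give the percent of each family's reads per kb held by each member in the 12 libraries. Pfkl reaches 56.9% and P4ha2 53.9% in knockout-labelled LPS replicate 1, and Bnip3 is the larger share in the 4 tumoral libraries only.

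The first comparison asked how tumoral DCs of day 14 differ from those of day 7. Most glycolytic enzymes and most hypoxia genes lay higher in the late-stage cells, but none of the 40 passed the test. In all, 32 members were higher in both late libraries than in both early ones and 2 were lower, where 23.0% and 22.2% of the 13040 genes tested were. The median log2 fold change was 0.67 over the members and 0.012 over all genes tested. The quasi-likelihood test of edgeR, with Benjamini-Hochberg adjustment over all genes and a threshold of 0.05, called 0.0% of genes higher and 0.023% lower. At an unadjusted p under 0.05 stood 24 of the 40 members and 1438 of all genes. DESeq2 called 5 members (Aldoa, Ak4, Adm, Ddit4 and Ankrd37) among the 0.613% of genes it called higher, and limma-voom called 1. In bulk samples, fewer cells of a type and less RNA per cell cannot be told apart.

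Along the pathway, Hk2, the inducible hexokinase, was 203.5 and 194 CPM early and 349 and 277 CPM late. Gpi1, the isomerase of the next step, was 895 and 1038 CPM early and 1353 and 1820 CPM late. Aldolase A, Aldoa, was 1703 and 1711 CPM early and 2751 and 3380 CPM late, a log2 fold change of 0.84 ± 0.23 (SE; edgeR adjusted p = 0.272). In each of these the late libraries lay clear of the early ones, and in Aldoa the gap was wider than the distance between replicates. Triosephosphate isomerase, Tpi1, was 904 and 855 CPM early and 1328 and 1710 CPM late. Pgam1, a phosphoglycerate mutase, was 401.5 and 417 CPM early and 619 and 762 CPM late. Pfkl was 201 and 235 CPM early and 328 and 416 CPM late. Gapdh, Pgk1, Eno1, Pkm and Ldha, which carry the pathway from glyceraldehyde phosphate to lactate, lay higher in the same way, with log2 fold changes of 0.50 to 0.67. Pdk1, which inhibits pyruvate dehydrogenase, had the smaller log2 fold change of 0.41 ± 0.23 (SE; edgeR adjusted p = 0.551). Of the 20 glycolysis members, 17 lay higher without overlap. Pfkp lay lower, at 451 and 698.5 CPM early and 434 and 443 CPM late, while Hk3 and Pfkm overlapped.

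The median log2 fold change was 0.81 over the 20 hypoxia members and 0.58 over the 20 glycolysis members, a difference that was not tested. Adm, which encodes the vasodilator peptide adrenomedullin, was 7.85 and 9.85 CPM early and 37.1 and 34.6 CPM late, the largest log2 fold change of the 40 at 2.02 ± 0.27 (SE; edgeR adjusted p = 0.056). Ak4, a mitochondrial adenylate kinase, was 21.3 and 19.5 CPM early and 49.0 and 58.7 CPM late (log2 1.40 ± 0.23 SE; edgeR adjusted p = 0.085). Ankrd37 was 9.95 and 9.19 CPM early and 21.6 and 25.4 CPM late. In these 3 genes both early libraries were alike and both late libraries were above them. Vegfa, the vascular growth factor, was different: it was 115 and 499 CPM early and 504 and 496 CPM late. Mxi1, a MYC antagonist, was 44.6 and 169 CPM early and 179 and 177.5 CPM late. Egln3 was 34.1 and 114 CPM early and 193 and 213 CPM late. Ndrg1 was 147 and 396 CPM early and 512 and 553 CPM late. In Vegfa, Mxi1, Egln3 and Ndrg1, early replicate 1 was far below the other libraries. Early replicate 2 was near the late libraries in Vegfa and Mxi1, but below both of them in Egln3 and Ndrg1. Early replicate 1 was the library also low in Il1b and in mature DC markers, and the part of that difference in the result was not tested. Bnip3 was 66.5 and 118 CPM early and 183.5 and 186 CPM late. The mTORC1 inhibitor gene Ddit4 was 40.7 and 57.9 CPM early and 87.9 and 131 CPM late. Mgarp had a log2 fold change of 1.15 ± 0.33 (SE; edgeR adjusted p = 0.278), and P4ha1, P4ha2, Zfp395, Higd1a, Egln1 and Bnip3l lay between 0.42 and 0.94. A few members went the other way or did not separate. Plod2, a collagen lysyl hydroxylase, was 16.7 and 9.43 CPM early and 8.12 and 3.49 CPM late. Hif1a, the regulator itself, was 152 and 343 CPM early and 204 and 166 CPM late, and Car9, a carbonic anhydrase, and Kdm3a, a histone demethylase, also overlapped.

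**Figure D3:**
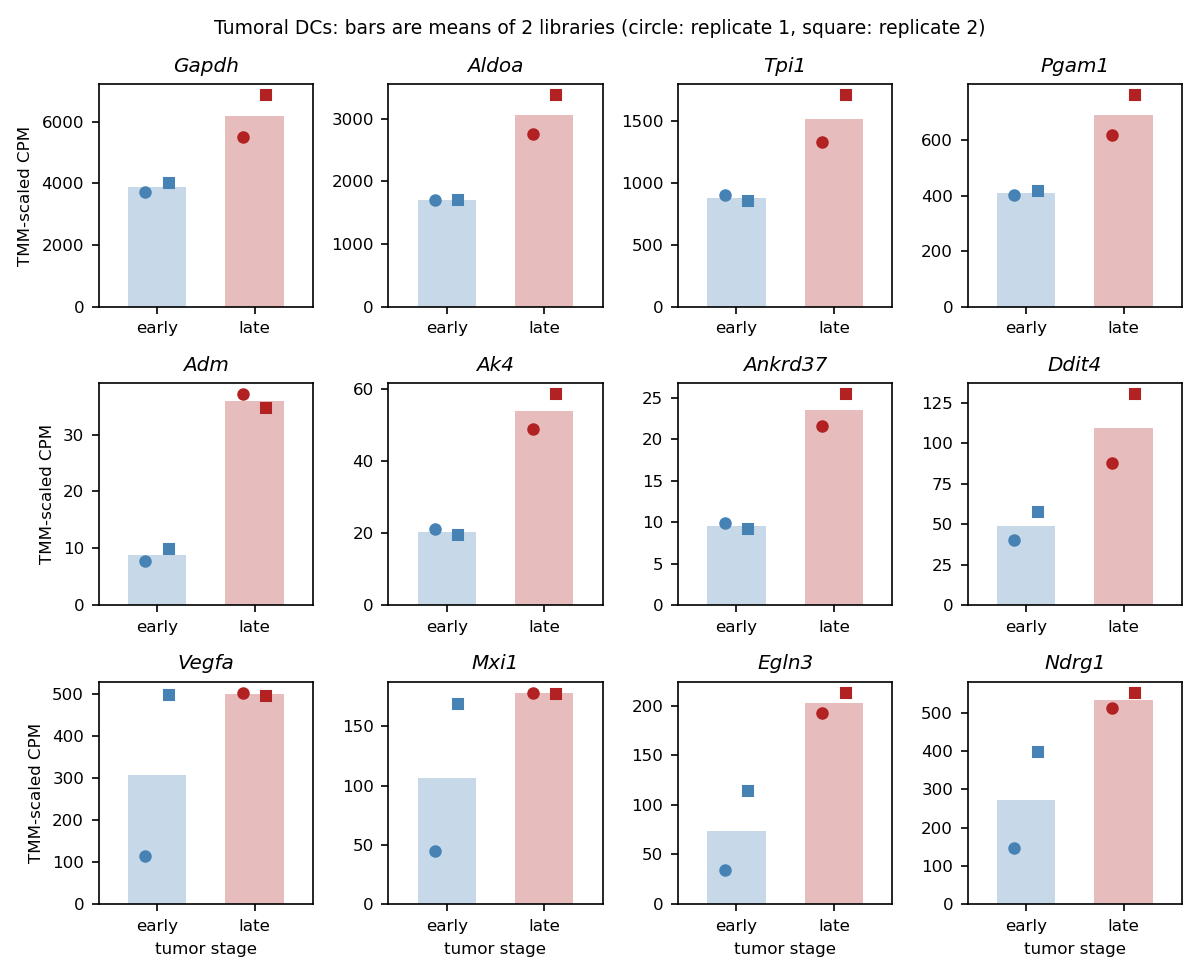
TMM-scaled CPM of 12 members in tumoral DCs; bars are means of 2 libraries and points the libraries. The glycolytic enzymes in the top row and Adm, Ak4, Ankrd37 and Ddit4 have both late points above both early points, while Vegfa, Mxi1, Egln3 and Ndrg1 in the bottom row have a low early replicate 1.

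Markers of other cell types moved with tumor stage. The summed level of 9 T cell markers was 712 and 497 CPM early and 145 and 88.9 CPM late, that of 8 cytotoxic and NK cell markers 1380 and 1070 CPM early and 304 and 130 CPM late, and that of 7 fibroblast markers 917 and 422 CPM early and 261 and 87.6 CPM late. None of these markers was at 0 in both libraries of a stage. The 11 monocyte and macrophage markers summed to 10200 and 6710 CPM early and 10600 and 12900 CPM late. Of these 11, 5 lay higher late without overlap and 2 lower. The 2 were Ly6c2, at 136 and 168 CPM early and 78.8 and 46.4 CPM late, and Ccr2. Ccr2 was 395 and 600 CPM early and 283 and 265 CPM late. C1qb alone was 2330 and 1050 CPM early and 2050 and 2700 CPM late. The part of all these markers in the members' difference was not tested. Without early replicate 1, edgeR called Ak4, Adm, Ddit4, Ankrd37 and Zfp395 higher and Hif1a lower, among 281 genes higher and 782 lower of 13389 tested. Without early replicate 2, it called 10 members higher, with Ak4, Adm, Ddit4 and Ankrd37 again among them, and Plod2 lower, among 269 genes higher and 303 lower of 13510. Both of these fits assume that the lone early library varies like the late ones.

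The next comparison asked what LPS does to WT BMDCs. LPS split the list: Hif1a, Pfkfb3 and several hypoxia genes rose, while Aldoc, Zfp395, Pgam1 and 3 others fell. Of the 40 members, 7 rose and 6 fell, where 20.0% and 17.6% of the 13072 genes tested did, so the members' shares were near the background. Scaling by library size alone moved the median log2 fold change of all genes from -0.024 to -0.23. With it, 7 members rose and 10 fell, and over all genes the calls went from 2609 higher and 2301 lower to 1689 and 3728. Hif1a was 99.8 and 94.6 CPM without LPS and 195 and 173 CPM with it, a log2 fold change of 0.92 ± 0.14 (SE; edgeR adjusted p = 0.00188). Pfkfb3 went from 1341 and 985 CPM to 3683 and 3608 CPM (log2 1.65 ± 0.22 SE; edgeR adjusted p = 0.00108). Hk1, the constitutive hexokinase, went from 119 and 99.1 CPM to 198 and 190 CPM (log2 0.83 ± 0.14 SE; edgeR adjusted p = 0.00296). For all 3 genes the groups were well separated, and each call held whichever library was left out. Mxi1 (log2 1.38), Ddit4 (1.60), Vegfa (1.30) and P4ha2 (1.5) also rose. Vegfa, for instance, went from 21.1 and 24.1 CPM to 61.8 and 49.96 CPM. The call of P4ha2 was lost when any 1 of the 4 WT libraries was left out.

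The members that fell with LPS in WT cells were isoenzymes of low level and a few others. Aldoc, the brain-type aldolase, fell from 27.5 and 27.4 CPM to 2.32 and 5.12 CPM (log2 -2.88 ± 0.34 SE; edgeR adjusted p = 0.000799). Zfp395, a zinc finger protein gene, fell from 19.8 and 18.3 CPM to 2.91 and 4.88 CPM (log2 -2.29 ± 0.31 SE; edgeR adjusted p = 0.00115). Pdk1 fell from 25.7 and 26.4 CPM to 8.43 and 11.5 CPM (log2 -1.38 ± 0.44 SE; edgeR adjusted p = 0.045). Aldoc and Zfp395 kept the call in every fit with a library left out, whereas Pdk1 lost it without any 1 of the 4 WT libraries. Pfkm (log2 -1.28), the neuronal enolase Eno2 (-0.71) and Pgam1 (-0.68) also fell. Pgam1 lost the call without any 1 of the 4 WT libraries, Pfkm without WT replicate 2 or either WT LPS library, and Eno2 without replicate 1 of either WT group. Pgam1, whose promoter window above holds 3 matches, was 227 and 243 CPM without LPS and 143 and 152 CPM with it. Gapdh did not pass: it was 1245 and 1421 CPM without LPS and 1163 and 1360 CPM with it. Pgk1, Eno1, Pkm and Aldoa overlapped between the groups as well, with log2 fold changes between -0.069 and 0.030. Ldha lay lower with LPS without overlap, at -0.43 ± 0.21 (SE; edgeR adjusted p = 0.142). The number of members that fell was 2 of 1059 genes in all without WT LPS replicate 1 and 3 of 1400 without WT LPS replicate 2. It was 3 of 1868 without WT replicate 1 and 3 of 1215 without WT replicate 2. Without knockout-labelled LPS replicate 1 or 2 it was 9 of 2062 or 9 of 2065.

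Without LPS, the knockout-labelled BMDCs were compared with WT. Hif1a, Pfkfb3 and 7 other members were called higher, and none was called lower. Of the 40 members, 9 were called higher and 0 lower, where 12.0% and 5.98% of the genes tested were. Whether the list differs from that background was not tested. By library, 21 members lay higher without overlap and 7 lower, where 4242 and 4127 of the 13072 genes tested did. The 7 that lay lower were Pfkm, Pfkfb4, Aldoc, Pgam1, Eno2, Adm and Zfp395. At an unadjusted p under 0.05 stood 15 of the 40 members and 4478 of the 13072 genes tested, so the members' share was near the background. The median log2 fold change was 0.35 over the members and -0.011 over all genes. By DESeq2, 12 members of 1598 genes in all were higher and 0 members lower, and by limma-voom 8 of 1586 and 0. Ddit4 was 25.5 and 28.8 CPM in WT and 149 and 111 CPM in knockout-labelled cells (log2 2.26 ± 0.21 SE; edgeR adjusted p = 0.000984). Vegfa was 21.1 and 24.1 CPM in WT and 104 and 73.1 CPM in knockout-labelled cells (log2 1.97 ± 0.25 SE; edgeR adjusted p = 0.00353). P4ha2 was 7.29 and 5.40 CPM in WT and 34.3 and 18.2 CPM in knockout-labelled cells (log2 2.04 ± 0.40 SE; edgeR adjusted p = 0.017). In each the groups were apart, and knockout-labelled replicate 1 was the higher of its pair. Ndrg1 (log2 1.5), Mxi1 (1.44), Pfkfb3 (1.22), Plod2 (0.99), Hif1a (0.94) and Hk1 (0.57) also passed. Gapdh was 1245 and 1421 CPM in WT and 1931 and 1522 CPM in knockout-labelled cells, a log2 difference of 0.37 ± 0.22 (SE; edgeR adjusted p = 0.275). Without knockout-labelled replicate 1, 5 members of 527 genes in all passed as higher, in place of 9 of 1575, and without knockout-labelled replicate 2 it was 12 of 1643. Without WT replicate 2 it was 5 of 737, and without WT replicate 1 it was 6 of 1352. Vegfa, Ddit4, Mxi1 and Hif1a kept the call whichever library was left out. P4ha2 lost it without either WT library or knockout-labelled replicate 1, Ndrg1 without either WT library, Hk1 without WT replicate 2 or knockout-labelled replicate 1, and Pfkfb3 without the latter. Plod2 lost it in 6 of the 8 fits with a library left out, those without either knockout-labelled LPS library being the exceptions. The mature DC markers moved the same way, as did Il1b above. They summed to 11300 and 9500 CPM in WT and 18500 and 16100 CPM in knockout-labelled cells. Other marker lists did not. The core classical DC sum was 17200 and 18700 CPM in WT and 10300 and 14300 CPM in knockout-labelled cells. Of 7 markers of type 1 classical DCs, 4 were called lower and 1 higher. Of 8 neutrophil markers tested, 4 were called lower and 0 higher. Of 11 monocyte and macrophage markers, 1 was called lower and 1 higher. The part of all these markers in the result was not tested.

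Under LPS, the knockout-labelled BMDCs were compared with WT. The 2 knockout-labelled libraries lay above both WT libraries in 31 of the 40 members and below them in 3, where 22.6% and 23.3% of all genes tested did so. The median log2 fold change over the members was 1.19, against -0.0078 over all genes, and 24 members had a log2 fold change over 1. By edgeR 0 members passed, as did 0.0% of all genes in either direction. At an unadjusted p under 0.05 stood 32 of the 40 members and 1330 of the 13072 genes. DESeq2 called 30 members higher, among the 113 genes, or 0.864% of those tested, that it called higher, and limma-voom called 0. Without knockout-labelled LPS replicate 2, edgeR called 23 members higher of 51 genes in all. Without replicate 1 it called 0, and the median fell to 0.80, so the size of the difference depended on which of these libraries was used.

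Among the enzymes, Gapdh was 1163 and 1360 CPM in WT with LPS and 3807 and 2382 CPM in knockout-labelled cells with LPS, a log2 fold change of 1.29 ± 0.23 (SE; edgeR adjusted p = 0.166). Pgk1 was 235 and 257 CPM in WT and 1113 and 601.5 CPM in knockout-labelled cells. Tpi1 was 142 and 158 CPM in WT and 937 and 497.5 CPM in knockout-labelled cells. In these 3 enzymes both knockout-labelled libraries were well above WT, and replicate 1 was the higher of its pair. Pfkl was 57.4 and 73.6 CPM in WT and 423 and 214 CPM in knockout-labelled cells. Ldha, which reduces pyruvate to lactate, was 404 and 414 CPM in WT and 1176 and 715 CPM in knockout-labelled cells. Pdk1 was 8.43 and 11.5 CPM in WT and 102 and 48.4 CPM in knockout-labelled cells, a log2 fold change of 2.91 ± 0.44 (SE; edgeR adjusted p = 0.166). Pdk1 had the largest fold of the glycolysis members. Hk2, Gpi1, Pfkp, Aldoa, Aldoc, Pgam1, Eno1 and Pkm also lay above WT without overlap, with log2 fold changes of 0.74 to 2.46. Hk3, Pfkfb3 and Pfkfb4 lay below it. Pfkfb3, which had been among the genes that rose with LPS in WT, was 3683 and 3608 CPM in WT and 2476 and 3311 CPM in knockout-labelled cells. Hk1, Pfkm and Eno2 overlapped.

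Among the hypoxia genes, Ak4 was 1.72 and 1.46 CPM in WT with LPS and 51.1 and 21.6 CPM in knockout-labelled cells with LPS, a log2 fold change of 4.51 ± 0.65 (SE; edgeR adjusted p = 0.166). Egln3, a HIF prolyl hydroxylase, was 5.29 and 7.02 CPM in WT and 70.8 and 33.3 CPM in knockout-labelled cells. Bnip3 was 12.2 and 16.5 CPM in WT and 115 and 56.3 CPM in knockout-labelled cells. Both knockout-labelled libraries stood clear of WT, and they differed from each other: Egln3 was 11.5 times the WT mean in replicate 1 and 5.42 times in replicate 2. Mgarp had 4 and 4 raw counts in WT and 368 and 141 in knockout-labelled cells. Ankrd37 was 0.475 and 1.40 CPM in WT and 12.3 and 6.25 CPM in knockout-labelled cells. P4ha2, with 3 matches in its promoter window, was 17.0 and 18.9 CPM in WT and 103 and 58.3 CPM in knockout-labelled cells. Plod2, Zfp395, Egln1, Ndrg1, Vegfa, P4ha1, Bnip3l, Higd1a, Ddit4, Kdm3a and Mxi1 lay above WT with log2 fold changes of 0.47 to 1.90. Adm, which had the largest fold between tumor stages, was 1.43 and 3.90 CPM in WT and 2.97 and 1.63 CPM in knockout-labelled cells. Hif1a was 195 and 173 CPM in WT and 157 and 198 CPM in knockout-labelled cells, and Car9 was likewise mixed. Hif1a, Adm and Car9 were the 3 hypoxia members of 20 that overlapped between the genotype labels.

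**Figure D4:**
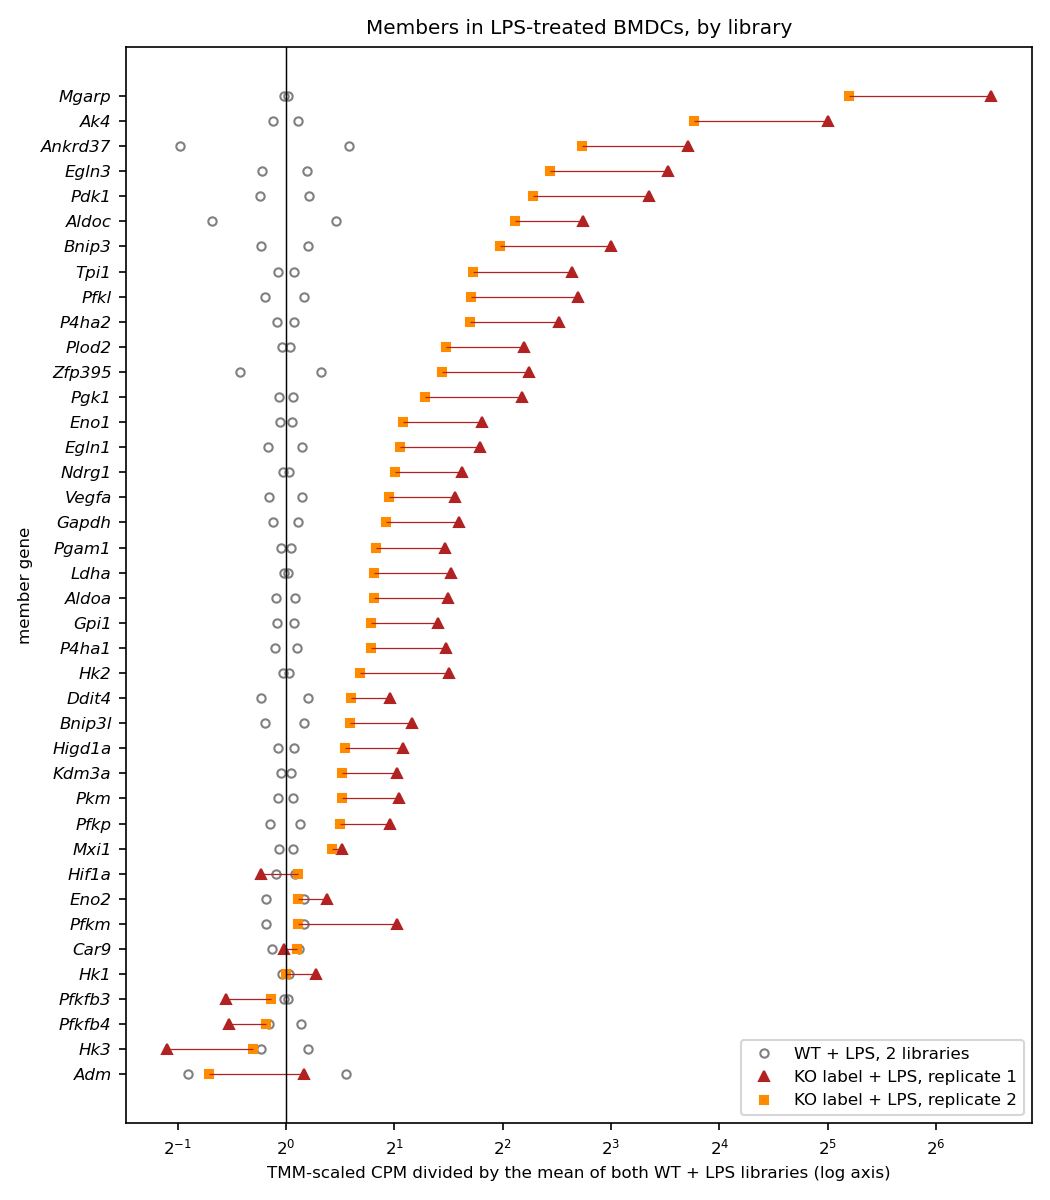
Level of each member in each LPS-treated BMDC library divided by the mean of both WT LPS libraries, on a log axis; grey circles are WT, triangles and squares the knockout-labelled replicates. Both knockout-labelled points lie to the right of both WT points in 31 members, and replicate 1 lies farther right than replicate 2 in most; Mgarp at the top rests on 4 and 4 WT counts.

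Other measures under LPS stood as follows. The mature DC markers summed to 20200 and 22900 CPM in WT and 19900 and 20800 CPM in knockout-labelled cells, and Il1b was 630 and 707 CPM in WT and 625 and 606 CPM in knockout-labelled cells. The 11 monocyte and macrophage markers summed to 1600 and 1260 CPM in WT and 744 and 1200 CPM in knockout-labelled cells. The 8 cytotoxic and NK cell markers summed to 59.4 and 61.3 CPM in WT and 126 and 96.8 CPM in knockout-labelled cells. None of them was at 0 in both libraries of a group. Most of this sum was Klrk1, at 47.0 and 44.1 CPM in WT and 100 and 70.3 CPM in knockout-labelled cells. The 6 epithelial markers summed to 14.8 and 26.5 CPM in WT and 73.9 and 34.3 CPM in knockout-labelled cells. Most of this sum was Cdh1, at 11.7 and 22.1 CPM in WT and 70.0 and 31.9 CPM in knockout-labelled cells. Epcam overlapped, at 2.61 and 4.15 CPM in WT and 3.33 and 2.25 CPM in knockout-labelled cells, and Krt19 was at 0 in both groups. The part of these markers in the members' difference was not tested.

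LPS was then compared with no stimulation within the knockout-labelled cells. The members lay higher with LPS in 27 of 40 cases without overlap and lower in 3, where 27.1% and 28.7% of all genes did. By edgeR 0 passed, as did 0.0% of genes in either direction, with 29 members and 2800 genes at an unadjusted p under 0.05. DESeq2 called 18 members higher, among 2.69% of all genes, and limma-voom called 0. The median log2 fold change was 0.68 over the members and -0.016 over all genes. Plod2 had the smallest adjusted p: it was 6.34 and 6.32 CPM without LPS and 22.9 and 13.9 CPM with it (log2 1.54 ± 0.24 SE; edgeR adjusted p = 0.0612). Pgk1 was 442 and 297 CPM without LPS and 1113 and 601.5 CPM with it. Kdm3a was 103.5 and 80.8 CPM without LPS and 180 and 126 CPM with it. Hif1a (log2 -0.072), Pfkfb3 (0.097) and Ddit4 (0.14) had folds smaller than their standard errors. Eno2, Pfkfb4 and Car9 were the 3 that lay lower. Without knockout-labelled replicate 1 of the unstimulated group, edgeR called Ak4, Plod2, P4ha2, Mxi1, Mgarp and Kdm3a higher, among 219 genes higher and 396 lower of 13557. Without knockout-labelled LPS replicate 2, it called Pgk1, Pgam1, Plod2 and Egln1, among 9 genes higher and 22 lower of 13586. Markers of other cells moved as well, from without to with LPS. The monocyte and macrophage sum went from 1620 and 1560 to 744 and 1200 CPM. The epithelial sum went from 25.8 and 24.6 to 73.9 and 34.3 CPM. Most of that sum was Cdh1, which went from 21.7 and 18.8 to 70.0 and 31.9 CPM. Epcam went from 3.63 and 5.29 to 3.33 and 2.25 CPM. The cytotoxic and NK cell sum went from 86.3 and 63.3 to 126 and 96.8 CPM, and Klrk1 within it from 63.4 and 46.9 to 100 and 70.3 CPM. Their part in the members' values was not tested.

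The difference between the LPS effects, knockout-labelled minus WT, was tested as an interaction. It passed for 7 members, in both directions: it was positive for Aldoc, Pgam1 and Zfp395 and negative for Pfkfb3, Ddit4, Mxi1 and Hif1a. Of all genes tested, 0.566% passed with a positive difference and 3.91% with a negative one. The median log2 difference was 0.91 over the members and -0.0073 over all genes, and library-size scaling moved the latter to 0.12. Aldoc had the largest, 3.17 ± 0.45 on the log2 scale (SE; edgeR adjusted p = 0.0129). In the knockout-labelled cells it was 17.3 and 16.4 CPM without LPS and 24.9 and 16.1 CPM with it, where the WT libraries had fallen from 27.5 and 27.4 to 2.32 and 5.12. Zfp395 had a difference of 2.51 ± 0.42 (SE; edgeR adjusted p = 0.0189), and in knockout-labelled cells it was 11.9 and 12.9 CPM without LPS and 18.4 and 10.6 CPM with it. Pgam1 had a difference of 1.36 ± 0.26 (SE; edgeR adjusted p = 0.0274), with 216 and 201 CPM without LPS and 407 and 262 CPM with it in knockout-labelled cells. Within the knockout-labelled cells, Pgam1 thus lay higher with LPS, while the groups overlapped for Aldoc and Zfp395. In unstimulated cells, Aldoc, Zfp395 and Pgam1 lay lower in the knockout-labelled than in the WT libraries without overlap, though none passed the test there.

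The genes with negative differences were all higher in unstimulated knockout-labelled than in unstimulated WT cells. Pfkfb3 was 3123 and 2287 CPM there without LPS and 2476 and 3311 CPM with it (difference -1.55 ± 0.31 SE; edgeR adjusted p = 0.0297). Hif1a was 206 and 168 CPM without LPS and 157 and 198 CPM with it (difference -0.99 ± 0.20 SE; edgeR adjusted p = 0.0327). Both genes overlapped between the knockout-labelled groups, whereas in WT they had risen. Ddit4 had a difference of -1.46 ± 0.28 (SE; edgeR adjusted p = 0.0326) and Mxi1 of -0.98 ± 0.20 (SE; edgeR adjusted p = 0.036). Pdk1, at 2.80 ± 0.60 (SE; edgeR adjusted p = 0.0512), and Egln1, at 1.43 ± 0.34 (SE; edgeR adjusted p = 0.0612), lay just outside the threshold. All 7 calls were lost without knockout-labelled replicate 1 and all 7 without knockout-labelled LPS replicate 1. Over all genes, 7 positive and 188 negative calls were left without the former and 1 and 57 without the latter. The members' positive and negative calls numbered 3 and 2 without WT replicate 1, where 80 and 527 genes passed, and 1 and 0 without WT replicate 2, where 10 and 212 did. They numbered 1 and 1 without WT LPS replicate 1, where 2 and 135 genes passed, and 2 and 0 without WT LPS replicate 2, where 18 and 256 did. Without knockout-labelled LPS replicate 2, 11 members had a positive difference that passed and 2 a negative one, among 75 and 335 genes.

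**Figure D5:**
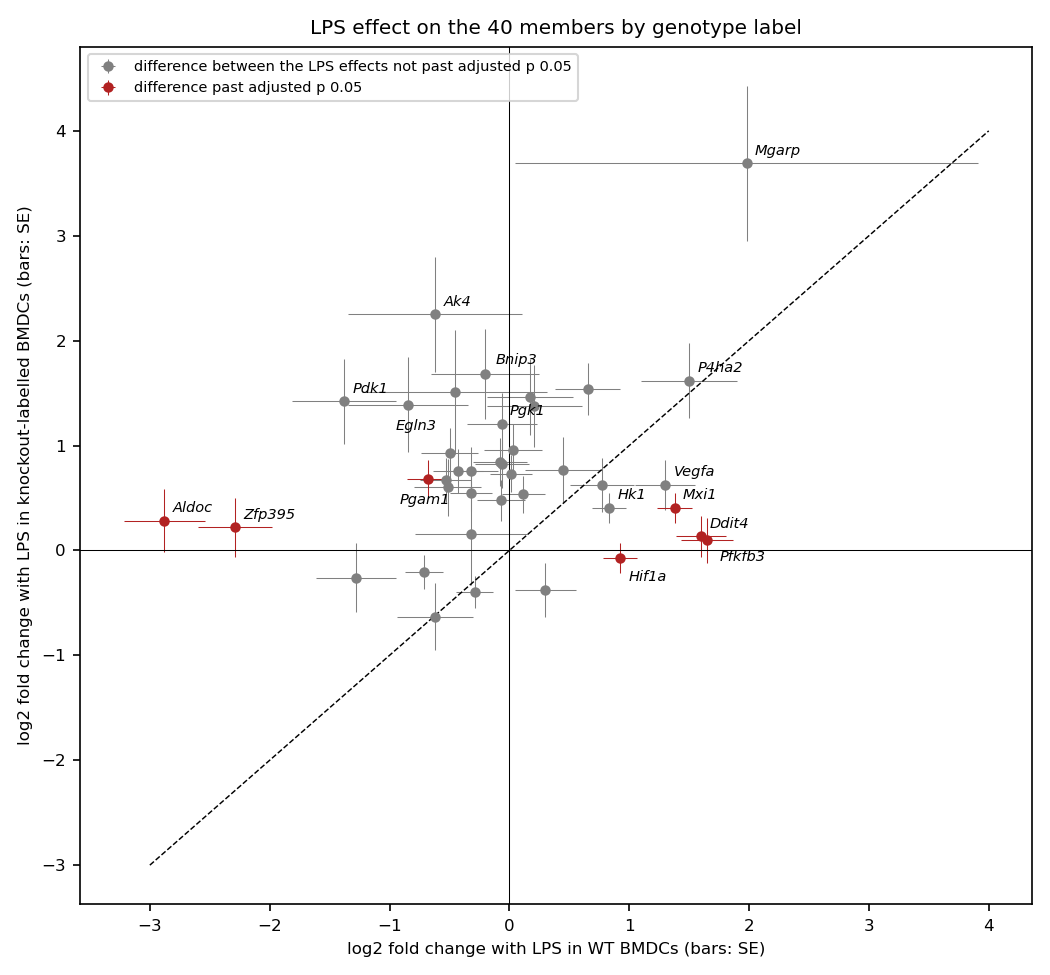
Log2 fold change with LPS in WT BMDCs (horizontal) against that in knockout-labelled BMDCs (vertical) for the 40 members, with SE bars; the dashed line marks equal effects. The 7 members whose difference passed (red) are Aldoc, Zfp395 and Pgam1 above the line and Pfkfb3, Ddit4, Mxi1 and Hif1a below it.

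Lists of neighbouring genes, also chosen with earlier results known, give the setting. With LPS in WT, 20.0% of all genes tested rose and 17.6% fell. Of 14 HIF regulators tested, 6 rose and 2 fell with LPS in WT, with Cited2 (log2 0.73) and Eloc (0.53) up and Rack1 (-0.95) and Vhl (-0.37) down. Of 10 pentose phosphate genes, 1 rose (Prps1, log2 0.64) and 8 fell, among them Prps2 (-1.20) and Taldo1 (-1.02). Of 24 genes of pyruvate dehydrogenase and the citric acid cycle, 1 rose and 4 fell. The pentose phosphate list moved mostly down with LPS in WT, while the members were split. Of 20 other hypoxia genes tested, 5 rose and 3 fell with LPS in WT, which is near the shares of all genes. Among them, Bhlhe40 (log2 1.37) was up and the glucose transporter gene Slc2a3 (-1.77) down. Between the genotype labels under LPS, 14 of these 20 stood at an unadjusted p under 0.05, where 1330 of the 13072 genes tested did. The median log2 fold change over the 20 was 0.71. The smallest p of that list was that of Slc2a1, a glucose transporter gene, which was 41.8 and 45.4 CPM in WT with LPS and 146 and 91.6 CPM in knockout-labelled cells with LPS (log2 1.45 ± 0.21 SE; edgeR adjusted p = 0.166). The 14 HIF regulators and 24 genes of the citric acid cycle list had medians of -0.044 and -0.051 in that comparison. In tumors, 5 of the 20 other hypoxia genes stood at an unadjusted p under 0.05, where 1438 of the 13040 genes tested did. The median over the 20 was 0.24, and the smallest p was that of Selenbp1 (log2 1.31 ± 0.24 SE; edgeR adjusted p = 0.113). Epas1, the other main HIF alpha subunit, had the smallest p of the 15 HIF regulators tested there, with a log2 fold change of -1.81 ± 0.29 (SE; edgeR adjusted p = 0.0745).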

How the data were processed

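RNA-seq was deposited as 2 tables of raw counts per gene symbol, 1 for the 4 tumoral libraries and 1 for the 8 BMDC libraries. The authors made the counts with fastp 0.12.4, HISAT2 2.2.1 and featureCounts 2.0.1 on mm10, per the submitters' processing notes; the gene annotation release is not given in the sources used here. Columns were assigned to samples by their names in the labels. Counts were analysed as deposited, with edgeR 4.0.16 in R 4.3.3 (limma 3.58.1): filterByExpr with a minimum count of 10, TMM scaling, a robust quasi-likelihood fit and Benjamini-Hochberg adjustment over all genes of a table (13040 and 13072 tested). The BMDC fit holds all 4 groups, which share 1 estimate of the spread. Calls are adjusted p under 0.05; a ± is the SE of the log2 fold change, or an SD where stated. edgeR put the biological coefficient of variation at 0.278 for tumoral libraries and 0.138 for BMDCs. Alternatives were DESeq2 1.42.0, limma-voom, other scalings and filters, a replicate block, 4-library fits and leaving out each library. Scripts were tested on simulated data. Promoters are from RefSeq (GRCm38.p6), and near-identical copies were found with blastn 2.17.0 at 95% identity over 200 bp. Transcript lengths and exon overlaps come from the annotation of GRCm38. Replicates differed beyond sampling noise in every group.

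The members and all gene lists were chosen with earlier results of these data known. By the rule for named genes, all 40 members may be named, and of each neighbouring list at most 2 called genes in each direction whose mean log2 CPM reached 2, or else the gene with the smallest p. Il1b and Irf7 were added as checks of the libraries, and some cell type markers are named to show what makes up their sums.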

Additional observations from a re-analysis of the deposited data

Results flagged for a closer look

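For 7 members, the LPS effect differed between knockout-labelled and WT BMDCs by a test of the difference itself (edgeR interaction, adjusted p under 0.05). The difference, knockout-labelled minus WT on the log2 scale, was 3.17 for Aldoc, 2.51 for Zfp395 and 1.36 for Pgam1, which fell with LPS in WT. It was -1.55 for Pfkfb3, -1.46 for Ddit4, -0.99 for Hif1a and -0.98 for Mxi1, which rose with LPS in WT. The unstimulated knockout-labelled libraries, 1 of the 4 groups in this test, held Il1b at 691 and 454 CPM, and the part of that in these differences was not tested. All 7 calls were lost without knockout-labelled replicate 1 and without knockout-labelled LPS replicate 1, and the largest adjusted p with a library left out ran from 0.0606 (Aldoc) to 0.134 (Mxi1). The fall of Pgam1 in WT was not called without any 1 of the 4 WT libraries.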

How the results depend on the processing

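Of the 40 members and 6 contrasts, 195 log2 fold changes were at least as large as their SE. Over the alternatives they gave 3083 values, of which 2806 kept direction and side of the threshold, 76 lost the call, 198 gained it and 3 changed sign. Another 45 were below their SE and are given no direction.

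Members called are given with all genes called in the same direction. For late against early tumoral DCs, 0 members of 0 genes were higher. Upper-quartile scaling gave 1 of 15, library size alone 1 of 7, limma-voom 1 of 8, DESeq2's test 5 of 80 and no filter on low counts 11 of 168. For LPS in WT, 6 of 2301 were lower, against 10 of 3728 with library size alone and 11 of 2056 with only the 4 libraries compared. For LPS in knockout-labelled cells, 0 were higher, against 2 of 240 with no filter and 18 of 352 by DESeq2's test. For knockout-labelled against WT, unstimulated, 0 of 782 were lower, against 1 of 209 with only the 4 libraries compared. Under LPS, 0 were higher, against 5 of 42 with no filter and 30 of 113 by DESeq2's test. For the interaction, 3 of 74 were higher, against 16 of 254 by DESeq2's test. The cause of these shifts was not tested.

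With each library left out in turn, the members higher and lower ranged from 0 to 10 and from 0 to 1 for tumor stage, from 6 to 9 and from 2 to 9 for LPS in WT, from 0 to 6 and 0 for LPS in knockout-labelled cells, from 5 to 12 and 0 for the unstimulated genotype labels, from 0 to 23 and 0 for the labels under LPS, and from 0 to 11 and from 0 to 4 for the interaction. Leaving out early replicate 2 turned the sign of Car9 (log2 -0.023 to 0.99 over the libraries left out) and Hif1a (-0.88 to 0.29) between tumor stages, and leaving out knockout-labelled LPS replicate 1 turned Hk1 (-0.0019 to 0.28) between the labels under LPS.

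Replicate numbers are shared between groups, but the labels do not say that they pair the samples. Deviations of same-numbered libraries correlated at -0.1 in tumors and from -0.264 to 0.334 in BMDCs. With the replicate block, 2 members of 35 genes in all were higher and 0 of 138 lower for tumor stage. For LPS in WT it was 8 of 2615 and 6 of 2266. For LPS in knockout-labelled cells it was 6 of 147 and 0 of 174. For the unstimulated labels it was 12 of 1629 and 0 of 872, and for the labels under LPS 2 of 2 and 0 of 0. For the interaction it was 5 of 59 and 3 of 457. With 2 libraries a group, precision is limited by the spread between libraries and, for Mgarp, by counts in single digits.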
